A study of Danio rerio with 10 samples.

Results

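The genes described here run the division phase of the cell cycle, mitosis and cytokinesis, in sorted zebrafish microglia and in other brain cells. They were chosen by name: a list of 54 gene symbols was looked up in the deposited table, which held 51 of them in 52 rows out of 21756 genes, because ube2c has 2 gene identifiers. The symbols foxm1, incenp and birc5b were not among its gene names. All 52 rows passed the low-value filter of the tests. The fish were 3 months old and came from the cross Neuro:NTR-mCherry x mpeg1:GFP. In such fish neurons carry nitroreductase (NTR), an enzyme that turns the prodrug metronidazole (MTZ) into a toxic product, and microglia and other macrophages carry GFP under the mpeg1 promoter. GFP-positive cells were sorted from brains of fish given the solvent DMSO (control microglia) or MTZ for 24 or 48 h (activated microglia). GFP-negative cells were collected as other brain cells, and the labels give no treatment for them. Whether a sample was 1 fish, a pool or a repeat is not labelled, so p-values measure just the spread between these samples, which may be technical.

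In mitosis the kinase Cdk1, bound to cyclins A and B, drives entry, condensins compact the chromosomes, and kinesins and their partners build the spindle. Kinetochores tie chromosomes to the spindle, the spindle checkpoint holds back the anaphase promoting complex until all are attached, and centralspindlin and anillin then guide the cleavage of the cell. Transcripts of these genes accumulate in G2 and M phase, after the genes of DNA replication, and are low in resting cells. Microglia in the adult brain divide rarely and are known to proliferate after neuronal damage.

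Values are the authors' normalized signal per gene, in which a gene without reads is listed at 0.223 and 1 read added between 0.072 and 0.1545 units. The libraries held between 6185540 and 12815571 reads. The column of control sample 9 equals that of 24 h sample 3 in all 21756 genes. It was taken here to be 24 h sample 3, so the groups are control samples 1 and 5, 24 h samples 3 and 7, 48 h samples 4 and 8, and other brain cell samples 2, 6 and 10. Values are given below in that order. Some results that rest on the shared column, mainly counts over the mitosis genes, are given with and without it. Others are given only with it as 24 h sample 3. These include most differences of single genes and most counts and medians of other gene lists. The macrophage marker list (14 genes found) summed to 27062 and 30728 units in controls, 28030 and 34000 at 24 h, then 66143 and 117400 at 48 h, and to between 301 and 799 in other brain cells. That list includes the apolipoprotein gene apoeb. It alone held 1.83% and 2.15% of all reads in controls, 2.14% and 2.59% at 24 h, then 5.21% and 7.02% at 48 h. Markers of neural progenitors and neuroblasts (12 genes found) summed to 115 and 124 in controls, 53.8 and 66.2 at 24 h, then 55.2 and 79.3 at 48 h, and to between 1252 and 1930 in other brain cells. The radial glia list (11 genes found) summed to 4025 and 4946 in controls, 3190 and 7365.5 at 24 h, then 8623 and 27447 at 48 h. Without the gene glula it summed to 422 and 335 in controls, 145 and 283 at 24 h, then 186 and 518 at 48 h. Other brain cells held between 8463 and 14856 with glula and between 4508 and 7873 without it.

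Mitosis genes were at their highest in microglia 48 h after the start of MTZ. Together the 52 rows held 0.0276% and 0.0217% of all reads in the control libraries, 0.0707% and 0.0422% at 24 h, then 0.176% and 0.157% at 48 h. In other brain cells they held 0.0793%, 0.0704% and 0.0819%. Both 48 h libraries stood above every other group, and both control libraries below. For all 52 rows the highest of the 9 libraries was one of the 48 h libraries, sample 4 for 23 rows and sample 8 for 29, against 7.49% and 19.5% of all genes tested. In bulk samples, more dividing cells and more RNA per dividing cell cannot be told apart.

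**Figure D1:**
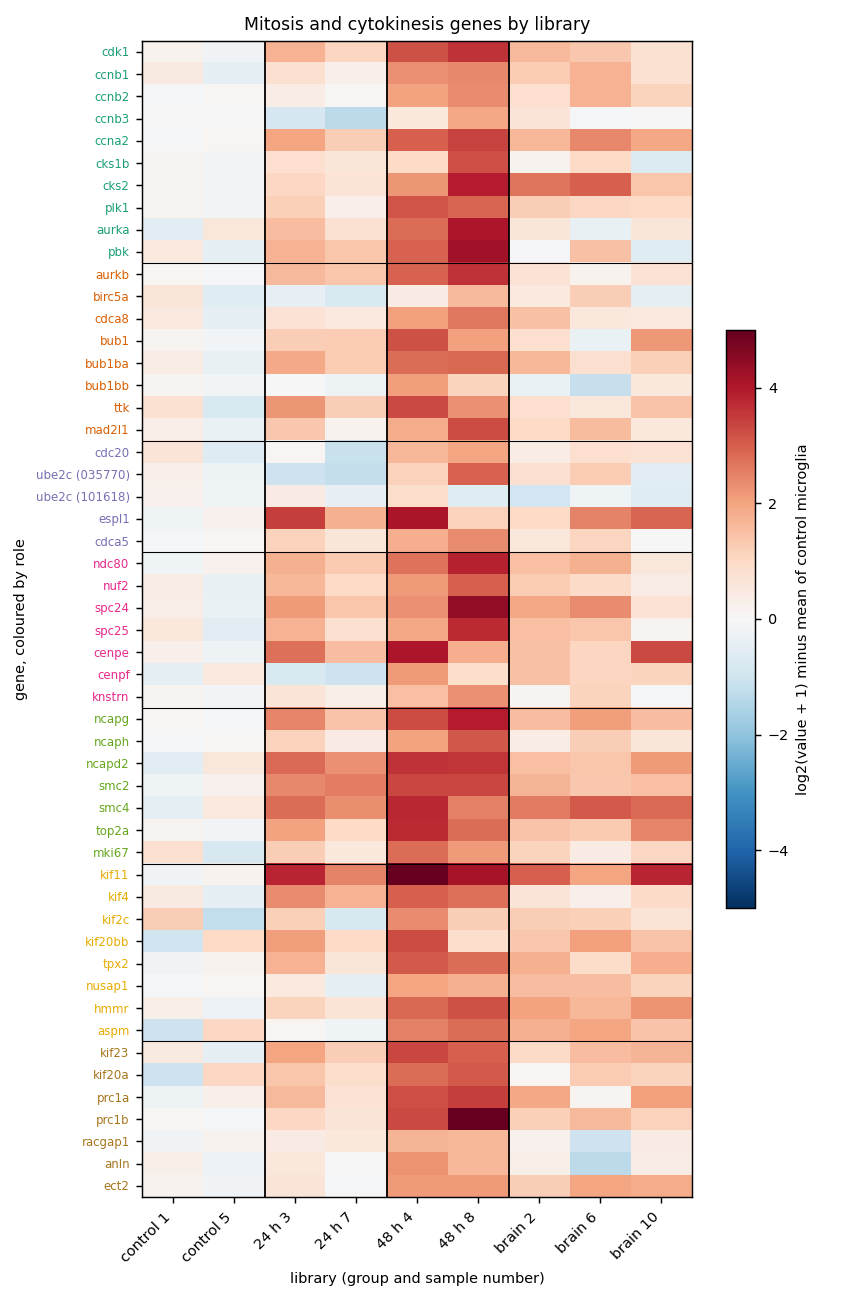
Heat map of the 52 rows (vertical axis, gene names coloured by role) in 9 libraries (horizontal axis, group and sample number); colour is log2(value + 1) minus the mean of the 2 control microglia libraries. The 48 h columns are the reddest in most rows, and the 24 h columns lie between control and 48 h for many but not all.

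Among the kinases and cyclins that start mitosis, cdk1 stood at 12.4 and 9.81 in controls, 38.9 and 24.7 at 24 h, then 108 and 148 at 48 h, with 35.6, 29.6 and 19.5 among brain cells. The groups of microglia did not overlap, in the order control, 24 h and 48 h. ccna2, the cyclin A gene, stood at 3.31 and 4.03 in controls, 17.3 and 10.1 at 24 h, then 36.2 and 47.6 at 48 h, with 13.6, 23.5 and 16.6 among brain cells, the same order. The cyclin B gene ccnb1 stood at 6.09 and 2.81 in controls, 8.05 and 5.26 at 24 h, then 24.5 and 26.1 at 48 h, and ccnb2 at 0.996 and 1.14 in controls, 1.7 and 1.16 at 24 h, then 7.43 and 9.62 at 48 h, so that 24 h lay near or within the control values and 48 h above them. ccnb3, a further B-type cyclin, stood at 8.88 and 8.9 in controls, 4.49 and 3.03 at 24 h, then 13.1 and 36.4 at 48 h, with 24 h below both controls. plk1, the Polo kinase of spindle assembly and mitotic exit, stood at 8.41 and 6.92 in controls, 18.5 and 9.35 at 24 h, then 76.1 and 63.1 at 48 h. aurka, the Aurora kinase of centrosomes and spindle poles, stood at 0.841 and 2.96 in controls, 6.81 and 3.62 at 24 h, then 17.8 and 43.7 at 48 h, with 3.16, 1.09 and 3.1 among brain cells. pbk, a mitotic protein kinase, stood at 7.33 and 3.27 in controls, 19.1 and 14.7 at 24 h, then 44.5 and 107 at 48 h, with 4.69, 15.4 and 2.96 among brain cells. For these 3 kinases 48 h was again above all other microglia. The Cdk-binding subunit genes cks1b and cks2 stood at 15.1 and 12.2 in controls, 25.1 and 20.9 at 24 h, then 28.4 and 135 at 48 h, and at 2.08 and 1.59 in controls, 4.8 and 3.5 at 24 h, then 11.9 and 41.7 at 48 h. Their 48 h libraries were far apart, with sample 8 at 4.76 and 3.51 times sample 4.

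Differences below are on the log2(value + 1) scale, on which changes of low genes come out smaller. By that measure 48 h exceeded control by 3.41 ± 0.33 (SE) for cdk1, 3.19 ± 0.38 for ccna2, 2.34 ± 0.45 for ccnb1 and 2.20 ± 0.33 for ccnb2. The differences were 3.03 ± 0.39 for plk1, 3.42 ± 0.67 for aurka, 3.56 ± 0.56 for pbk and 3.05 ± 0.66 for cks2. None passed Benjamini-Hochberg adjustment over all genes in limma, where the adjusted p was 0.109 for cdk1 and 0.14 for cks2, with unadjusted p of 0.000142 and 0.00544.

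The chromosome passenger complex corrects faulty attachments and later acts in cytokinesis. Its kinase gene aurkb stood at 5.01 and 4.18 in controls, 16 and 13.7 at 24 h, then 41.8 and 66.5 at 48 h, with 8.14, 5.31 and 8.29 among brain cells, in the order control, 24 h and 48 h without overlap. Its borealin gene cdca8 stood at 4.86 and 2.05 in controls, 5.88 and 4.9 at 24 h, then 16.6 and 25.3 at 48 h. Its survivin gene birc5a stood at 6.4 and 2.2 in controls, 2.63 and 1.86 at 24 h, then 5.48 and 14 at 48 h, where 48 h sample 4 lay below control sample 1. In the spindle checkpoint, ttk, the Mps1 kinase, stood at 7.49 and 1.9 in controls, 22 and 10.5 at 24 h, then 47.2 and 22.9 at 48 h, with 7.88, 6.29 and 12.3 among brain cells. The checkpoint kinase gene bub1 stood at 0.687 and 0.375 in controls, 2.55 and 2.68 at 24 h, then 12.7 and 5.23 at 48 h, and its relative bub1ba at 1.3 and 0.375 in controls, 5.65 and 3.27 at 24 h, then 11.4 and 12 at 48 h. Both were near their floor in the controls, with between 1 and 7 reads per library. bub1bb stood at 3 and 2.35 in controls, 2.63 and 2.1 at 24 h, then 14.7 and 6.86 at 48 h, where control and 24 h overlapped. mad2l1, the checkpoint protein that holds Cdc20, stood at 6.87 and 3.88 in controls, 14.9 and 6.08 at 24 h, then 21.7 and 57.7 at 48 h. The 48 h minus control differences were 3.27 ± 0.34 for aurkb, 2.78 ± 0.72 for ttk and 2.84 ± 0.46 for bub1ba (log2, SE; limma, Benjamini-Hochberg adjusted p = 0.109, 0.172 and 0.117).

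Of 7 kinetochore genes, 5 were highest in 48 h sample 8. ndc80, the outer kinetochore protein that grips microtubules, stood at 3.16 and 4.48 in controls, 15.3 and 10.8 at 24 h, then 30.8 and 67.6 at 48 h, with 12.5, 15.3 and 6.13 among brain cells. The other subunits of its complex stood at 2.85 and 1.29 in controls, 8.29 and 4.9 at 24 h, then 12.1 and 22.6 at 48 h for nuf2, at 2.7 and 1.29 in controls, 11.7 and 6.66 at 24 h, then 13.3 and 62.3 at 48 h for spc24, and at 4.86 and 1.75 in controls, 12.4 and 6.08 at 24 h, then 14.4 and 52.3 at 48 h for spc25. In each of these 4 genes every 24 h library exceeded both controls and 48 h sample 8 was the highest library. The kinesin gene cenpe, which carries chromosomes to the spindle equator, stood at 0.996 and 0.375 in controls, 10.1 and 3.85 at 24 h, then 26.5 and 4.86 at 48 h, with 3.54, 2.5 and 15.2 among brain cells, with 48 h sample 8 below 24 h sample 3. cenpf, a large kinetochore protein, stood at 13.5 and 28.1 in controls, 11 and 9 at 24 h, then 87.7 and 36.4 at 48 h, with 55.2, 42.2 and 43.6 among brain cells, with 24 h below both controls. knstrn, a kinetochore and spindle adaptor, stood at 2.23 and 1.75 in controls, 3.71 and 2.68 at 24 h, then 7.54 and 13.4 at 48 h. The 48 h minus control difference was 3.29 ± 0.48 for ndc80 and 2.94 ± 0.88 for cenpe (log2, SE; limma, Benjamini-Hochberg adjusted p = 0.111 and 0.202).

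Of the 7 genes that shape chromosomes, 1 was called higher in activated against control microglia. All 7 had a difference above 0, as did all 52 rows, against 11144 of 21714 genes. smc2, the ATPase shared by both condensins, stood at 3.78 and 5.55 in controls, 28.2 and 32.2 at 24 h, then 56.1 and 55.2 at 48 h, with 16.9, 13.3 and 15.1 among brain cells. It rose by 2.91 ± 0.38 (log2, SE) in activated (n = 4) against control microglia (n = 2) and was the single row of the 52 to pass (limma, Benjamini-Hochberg adjusted p = 0.0428), against 0.834% of all genes called higher. At an unadjusted p under 0.05, 24 of 52 were higher and 0 lower, against 11.2% and 9.33% of all genes. Pooling 24 h and 48 h adds the difference between them to the spread. The SE was 0.75 for cdk1 and 1.3 for prc1b, against 0.33 and 0.65 for 48 h minus control with the time points as separate groups. For smc2 it was 0.38 and 0.28. Its partner smc4 stood at 1.15 and 3.27 in controls, 19.8 and 14.3 at 24 h, then 40.4 and 16.4 at 48 h, with 17.3, 24.7 and 20.3 among brain cells, and the condensin subunit ncapd2 at 1.15 and 3.72 in controls, 21.6 and 14.4 at 24 h, then 37.6 and 36.8 at 48 h, with 8.14, 7.26 and 12.9 among brain cells. Both had every activated library above both controls, at 2.85 ± 0.52 and 3.07 ± 0.53, with adjusted p of 0.0624 and 0.0593. The condensin I subunit ncapg stood at 4.86 and 4.33 in controls, 29.5 and 14 at 24 h, then 52.5 and 82.9 at 48 h, with 15.4, 22.6 and 15.3 among brain cells, and ncaph at 5.32 and 6.01 in controls, 13.9 and 7.95 at 24 h, then 25.6 and 56.7 at 48 h. top2a, the topoisomerase that untangles sister DNA, stood at 9.96 and 7.99 in controls, 38.8 and 18.6 at 24 h, then 132 and 67.6 at 48 h, with 26, 23.7 and 52.9 among brain cells. mki67, which coats mitotic chromosomes and is the usual marker of dividing cells, stood at 51.5 and 16.7 in controls, 69.7 and 43.3 at 24 h, then 212 and 131 at 48 h, with 65.7, 39.6 and 60.8 among brain cells. For mki67, 24 h sample 7 lay below control sample 1, so control and 24 h overlapped. The 48 h minus control differences were 3.34 ± 0.28 for smc2, 3.58 ± 0.45 for ncapg, 3.27 ± 0.50 for top2a and 2.46 ± 0.61 for mki67, all with adjusted p between 0.109 and 0.164.

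**Figure D2:**
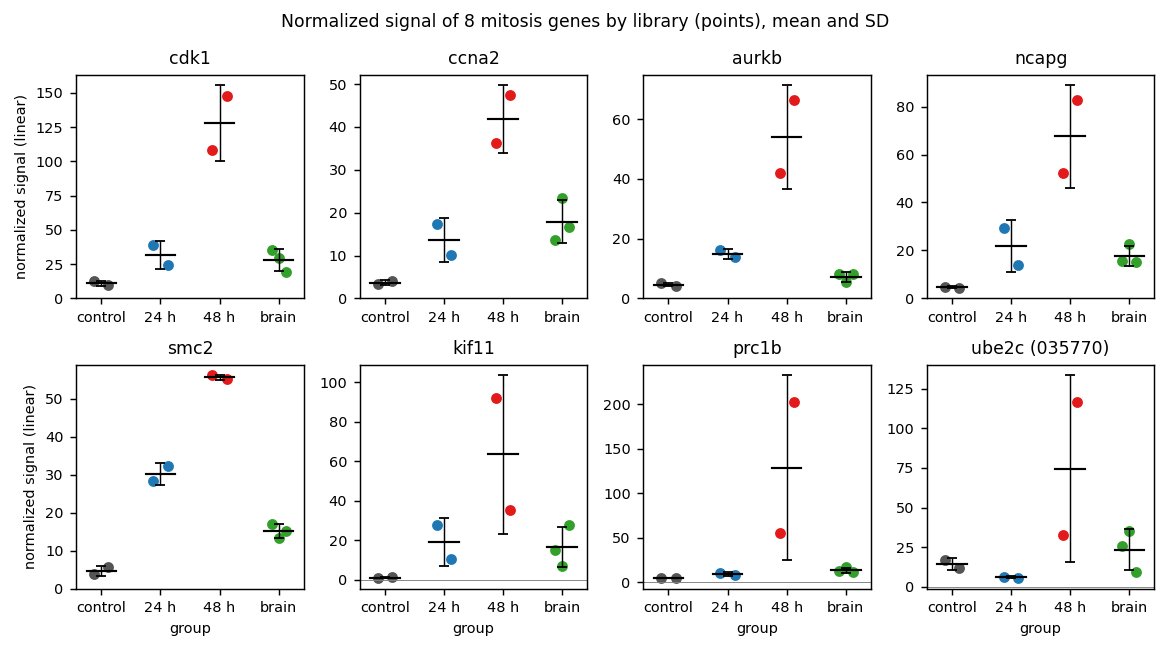
Normalized signal on linear axes (vertical) of 8 genes in control, 24 h and 48 h microglia and other brain cells (horizontal); points are libraries, lines the mean and bars the SD (n = 2, 2, 2 and 3). The highest point in each panel is a 48 h library. The 48 h points are tightly paired for smc2 and far apart for prc1b, and for ube2c the 24 h points lie below control.

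Of the spindle genes, kif11, the motor that pushes spindle poles apart, had the largest 48 h minus control difference of the 52 rows. It stood at 0.841 and 1.29 in controls, 27.7 and 10.4 at 24 h, then 91.9 and 35.2 at 48 h, with 15.3, 7.04 and 27.6 among brain cells, and 48 h exceeded control by 4.82 ± 0.67 (log2, SE). It did not pass (limma, Benjamini-Hochberg adjusted p = 0.111), and its controls held 4 and 7 reads. The chromokinesin gene kif4 stood at 4.4 and 1.9 in controls, 19.1 and 12.3 at 24 h, then 30.1 and 25.5 at 48 h, with 5.2, 3.69 and 6.78 among brain cells, with control, 24 h and 48 h apart. The microtubule depolymerase gene kif2c stood at 11.8 and 1.29 in controls, 11.4 and 2.1 at 24 h, then 26.7 and 11.7 at 48 h, with wide overlap, and the kinesin gene kif20bb at 0.532 and 4.94 in controls, 12 and 5.02 at 24 h, then 28.1 and 4.48 at 48 h, where 48 h sample 8 lay below control sample 5. tpx2, the activator of Aurora A, stood at 1.61 and 2.35 in controls, 8.83 and 3.5 at 24 h, then 24 and 19.5 at 48 h. The spindle protein gene nusap1 stood at 4.24 and 5.09 in controls, 6.89 and 3.15 at 24 h, then 21 and 18.4 at 48 h, and hmmr, a spindle-pole adaptor, at 1.3 and 0.527 in controls, 3.09 and 1.98 at 24 h, then 12.6 and 16 at 48 h. aspm, a spindle-pole protein known from human microcephaly, stood at 2.39 and 13.2 in controls, 6.35 and 4.9 at 24 h, then 39.1 and 47.2 at 48 h. For nusap1 and aspm, control and 24 h overlapped and 48 h lay above both. The 48 h minus control difference was 3.02 ± 0.42 for hmmr and 2.07 ± 1.09 for kif20bb (log2, SE; limma, adjusted p = 0.111 and 0.393).

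Genes of anaphase varied in their order. cdc20, the activator of the anaphase promoting complex, stood at 11 and 3.88 in controls, 7.28 and 2.56 at 24 h, then 23.3 and 29.2 at 48 h. Its E2 enzyme ube2c (ENSDARG00000035770) stood at 17.1 and 11.8 in controls, 6.5 and 5.61 at 24 h, then 32.8 and 116 at 48 h, with 25.5, 35.3 and 9.58 among brain cells, with both 24 h libraries below both controls and both 48 h libraries above. The second ube2c row (ENSDARG00000101618) stood at 5.48 and 3.72 in controls, 6.27 and 3.15 at 24 h, then 9.14 and 2.6 at 48 h, with no order among the groups, and reads of the 2 rows may not be separable. The separase gene espl1, which cuts cohesin, stood at 0.223 and 0.68 in controls, 14.6 and 3.97 at 24 h, then 23.5 and 2.23 at 48 h, with 1.88, 6.94 and 9.87 among brain cells, where the controls held 0 and 3 reads and 48 h sample 8 lay below both 24 h libraries. The sororin gene cdca5, which guards sister cohesion, stood at 3.47 and 3.88 in controls, 9.29 and 6.19 at 24 h, then 15.3 and 23.1 at 48 h. The 48 h minus control difference was 2.05 ± 0.64 for ube2c (ENSDARG00000035770) and 2.63 ± 1.12 for espl1 (log2, SE; limma, adjusted p = 0.21 and 0.303).

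All 7 cytokinesis genes had both 48 h libraries above both controls and above both 24 h libraries, where 21.5% and 14.3% of all genes had the first and the second. The same held for all 10 genes of the entry kinases and cyclins. prc1b, which bundles the microtubules of the central spindle, stood at 5.01 and 4.48 in controls, 10.7 and 8.06 at 24 h, then 55.3 and 203 at 48 h, with 12.2, 16.7 and 11.6 among brain cells, and its paralogue prc1a at 0.841 and 1.59 in controls, 5.81 and 2.56 at 24 h, then 19.2 and 23.3 at 48 h, with 7.24, 1.41 and 8.07 among brain cells. The centralspindlin kinesin gene kif23 stood at 4.24 and 1.75 in controls, 13.9 and 7.83 at 24 h, then 37.8 and 29.4 at 48 h, and its partner racgap1 at 3 and 4.03 in controls, 4.95 and 5.49 at 24 h, then 13.7 and 13.4 at 48 h. The guanine exchange factor gene ect2, which turns on RhoA at the cleavage site, stood at 2.39 and 1.59 in controls, 3.63 and 1.74 at 24 h, then 12 and 11.9 at 48 h. anln, the anillin of the contractile ring, stood at 16.1 and 10.3 in controls, 18.8 and 12.7 at 24 h, then 65.6 and 42.9 at 48 h, and the kinesin gene kif20a at 0.223 and 4.03 in controls, 5.42 and 3.5 at 24 h, then 16.2 and 19.5 at 48 h. For ect2, anln and kif20a, at least 1 of the 24 h libraries lay within the range of the controls. The 48 h minus control differences were 4.22 ± 0.65 for prc1b, 3.34 ± 0.48 for prc1a, 3.18 ± 0.49 for kif23 and 2.13 ± 0.43 for ect2 (log2, SE; limma, adjusted p from 0.111 to 0.132).

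Counted over the 52 rows, both 48 h libraries lay above both controls for 48, against 21.5% of all genes, and below for 0, against 22.2%. The median difference was 2.72 (log2) against 0 over all genes. In the fit of 3 microglia groups, limma called 0 of 52 at an adjusted p under 0.05, and 0% of all genes were called higher. At an unadjusted p under 0.05 it had 46 of 52 higher, against 10% of all genes, and 0 lower, against 8.23%. With other brain cells added to the fit, which gives 1 estimate of the spread over all 4 groups, it called 24 of 52 higher, against 0.875% of all genes. With the shared column left out of that fit it called 12, against 0.189%. The 24 h libraries lay above both controls for 36 rows, against 29.3% of all genes, and below for 3, against 25.6%, with a median of 1.01. Limma called 0 of 52 at 24 h, where 0.00461% of all genes were called higher, and had 15 at an unadjusted p under 0.05, against 9.18%. At 24 h the differences were 3.14 ± 0.67 for kif11, 2.56 ± 0.60 for smc4, 2.55 ± 0.49 for ncapd2, 2.48 ± 0.28 for smc2 and 2.05 ± 0.45 for kif4. espl1 and cenpe, with 0 to 5 reads in the controls, also ranked among the 7 largest. Control reads were also few for some of the others, at 4 and 7 for kif11, 6 and 20 for smc4 and 6 and 23 for ncapd2. They were 23 and 35 for smc2 and 27 and 11 for kif4.

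Without the shared column, so that sample 7 alone stood for 24 h, 36 rows lay above both controls at 24 h (37.9% of all genes) and the median was 0.67. Taken as control sample 9, the column left 45 rows with both 48 h libraries above all 3 controls (10% of all genes) and the median at 48 h was 2.18. In that use 24 h, left with sample 7 alone, lay above all 3 controls for 3 rows, against 22.8% of all genes. The call of smc2 was lost with the column in both groups, as deposited, or in neither. It was also lost without 24 h sample 3, 24 h sample 7 or 48 h sample 4. In each of these settings 0 of 52 rows were called, as were 0% of all genes. In limma-voom 0 of 52 were called higher, against 0.106% of all genes. The call of smc2 was lost too without control sample 1 or control sample 5, which left 1 control library. Without 48 h sample 8, 3 of 52 were called, against 4.8% of all genes. With all 4 groups in 1 fit, 17 of 52 were called higher, smc2 among them, against 1.38% of all genes, and with the shared column left out of that fit, 0. The summed macrophage markers moved in the same direction as the mitosis genes, from 27062 and 30728 in control to 66143 and 117400 at 48 h. That sum includes apoeb, which went from 1.83% and 2.15% of reads to 5.21% and 7.02%. A sum without apoeb was not computed. The endothelial list without pecam1 (4 genes found) summed to 9.55 and 19.8 in controls, 50.7 and 60.1 at 24 h, then 82.5 and 50.9 at 48 h. Among other brain cells the same list summed to 9.06, 6.52 and 9.39. In both 48 h libraries 1 gene of that list, cdh5, had no reads, while the sum was above both controls. With pecam1 the list summed to 264 and 240 in controls, 399 and 356 at 24 h, then 494 and 466 at 48 h. It summed to 9.92, 6.96 and 11.3 among other brain cells. Mitochondrial genes held 8.99% and 6.69% of control reads, 4.37% and 2.87% at 24 h, then 5.58% and 1.7% at 48 h. The part of these 3 measures in the result was not tested.

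Comparing 48 h with 24 h asked whether the time points differ. Both 48 h libraries lay above both 24 h libraries for 47 of 52 rows, against 14.3% of all genes, and below for 0, against 18.2%. The median difference was 1.72 (log2) against -0.04 over all genes. The largest were 3.38 ± 0.65 for prc1b, 3.16 ± 0.64 for ube2c (ENSDARG00000035770), 2.74 ± 0.72 for aspm, 2.39 ± 0.56 for cenpf, and cdc20 and plk1, the latter at 2.31 ± 0.39. cdk1 and ccnb2 differed by 2.00 ± 0.33 and 1.97 ± 0.33. The 5 condensin genes ranged from 0.59 ± 0.60 for smc4 and 0.86 ± 0.28 for smc2, through 1.03 ± 0.49 for ncapd2, to 1.64 ± 0.45 for ncapg and 1.76 ± 0.50 for ncaph. The chromokinesin gene kif4 stood at 0.81 ± 0.45. Limma called 0 of 52, as it did 0% of all genes (smallest adjusted p = 0.892), and had 36 of 52 at an unadjusted p under 0.05, against 1.89% of all genes. With sample 7 alone for 24 h, 49 rows had both 48 h libraries above it, against 23.7% of all genes.

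The genes of S phase, a list of 30 measured genes of DNA replication, were described in the same way. Both 24 h libraries lay above both controls for 28 of 30, against 29.3% of all genes. Both 48 h libraries lay above both 24 h libraries for 6 of 30, near the share of 14.3% of all genes. Their median was 1.86 at 24 h and 2.53 at 48 h against control, and 0.28 for 48 h minus 24 h. The helicase subunit gene mcm2 stood at 7.49 and 13.5 in controls, 199 and 172 at 24 h, then 178 and 116 at 48 h. The mitosis genes stood at 1.01, 2.72 and 1.72 in the same 3 comparisons, of which the first and second share their control libraries. The difference between the lists was not tested. In both lists the 24 h results given here use the shared column as 24 h sample 3.

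**Figure D3:**
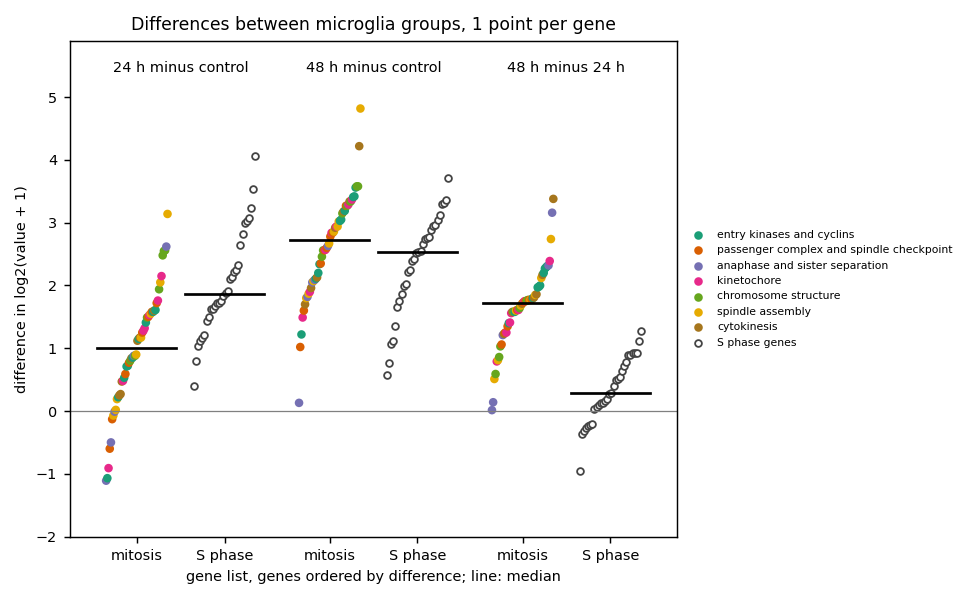
Difference in log2(value + 1) (vertical axis) for 24 h minus control, 48 h minus control and 48 h minus 24 h; each point is a gene, coloured by role for mitosis and open for the 30 S phase genes, with the median as a line. The medians for mitosis are 1.01, 2.72 and 1.72, and those for S phase 1.86, 2.53 and 0.28.

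Between the 2 libraries at 48 h, the share of rows that differed by 2 times or more was near that of all genes. Sample 8 was at least 2 times sample 4 for 13 of 52 rows and sample 4 at least 2 times sample 8 for 11, against 18.2% and 23.3% of all genes. These ratios depend on the scaling, since the column sums were 1444667 in sample 8 and 1071065 in sample 4. The 52 rows summed to 2269 units in sample 8 and 1886 in sample 4, but held 0.157% and 0.176% of reads. cks1b, spc24, prc1b, spc25, ube2c (ENSDARG00000035770) and cks2 were 4.76, 4.7, 3.66, 3.63, 3.55 and 3.51 times sample 4 in sample 8. espl1, kif20bb and cenpe were at 0.0946, 0.159 and 0.183 times sample 4. smc4, kif11 and top2a were at 0.406, 0.383 and 0.513 times sample 4, while smc2, ncapd2 and ccnb1 were nearly equal. Of the other measures, mitochondrial genes held 1.7% of reads in sample 8 and 5.58% in sample 4. The gene apoeb, which is on the macrophage list, held 7.02% and 5.21%. The part of these measures in the difference was not tested. At 24 h, sample 3 was above sample 7 for 49 of 52 rows, against 49.4% of all genes.

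**Figure D4:**
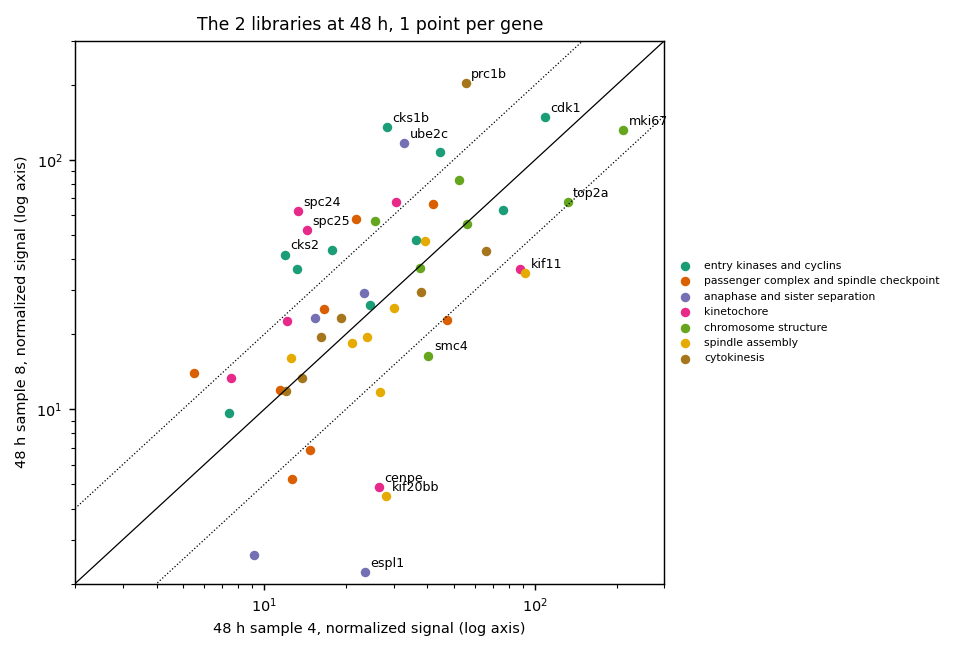
Normalized signal in 48 h sample 8 (vertical, log axis) against 48 h sample 4 (horizontal, log axis), 1 point per gene, coloured by role; the solid line marks equal values and the dotted lines a ratio of 2. Points lie on both sides, with cks1b, spc24 and prc1b above the upper dotted line and espl1, kif20bb and cenpe far below the lower one.

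Next, control microglia (n = 2) were set against other brain cells (n = 3). Of 52 rows, 17 were lower in control microglia and 0 higher (limma, Benjamini-Hochberg adjusted p under 0.05), against 20.2% and 15.1% of all genes. For 30 rows both control libraries lay below all 3 brain libraries, against 32.6% of all genes. The median was -1.15 (log2) against -0.14 over all genes. kif11 differed by -2.92 ± 0.58, smc4 by -2.83 ± 0.45, cks2 by -2.35 ± 0.55 and espl1 by -2.13 ± 0.59 (adjusted p = 0.0046, 0.00162, 0.0104 and 0.0228). ccna2, hmmr, ncapg and top2a differed by -1.99 ± 0.41, -1.97 ± 0.44, -1.73 ± 0.39 and -1.73 ± 0.43, and ect2, cdk1 and cenpf by -1.68 ± 0.45, -1.24 ± 0.38 and -1.22 ± 0.39. The others called lower were plk1, ncapd2, smc2, tpx2, nusap1 and prc1b. The Aurora kinase genes aurka and aurkb and the kinase gene pbk did not pass, at -0.29 ± 0.51, -0.54 ± 0.43 and -0.27 ± 0.66 (adjusted p = 0.714, 0.374 and 0.796), and the sign of aurka and pbk turned under quantile normalization. The count was 8 without other brain cell sample 2 (15.2% of all genes called lower) and 7 with the shared column as a control (22.8%). Leaving out either control sample left 1 control library, and fewer of the 52 rows and of all genes were called lower. Quantile normalization, under which the all-gene median went to 0.06, called 9 (15.8%), and limma-voom called 9 (16.7%). Rescaling to equal sums, under which the all-gene median went to -0.47, called 27 (23.9%).

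Activated microglia (n = 4) against other brain cells gave 7 of 52 rows higher and 0 lower, against 22.9% and 27.6% of all genes, so the share called higher was below the background. The 4 activated libraries pool 24 h and 48 h, so differences between the time points add to the spread in this fit. The 48 h libraries alone were not tested against other brain cells. The 7 rows called higher in the pooled fit included pbk at 2.30 ± 0.69, aurka at 2.00 ± 0.70, aurkb at 1.84 ± 0.52 and kif4 at 1.83 ± 0.37 (log2, SE). The rest were ncapd2 at 1.39 ± 0.39, smc2 at 1.39 ± 0.32 and ttk at 1.30 ± 0.46. The adjusted p ran from 0.00227 for kif4 to 0.0386 for ttk (limma, Benjamini-Hochberg). At an unadjusted p under 0.05, 9 were higher and 0 lower, against 26% and 30.4%. The median was 0.85 against -0.05 over all genes. Of the 52 rows, 5 had all 4 activated libraries above all 3 brain libraries, against 24.2% of all genes. These were aurka, aurkb, kif4, ncapd2 and smc2. For pbk and ttk, 24 h sample 7 lay within the brain values. The count was 3 without other brain cell sample 2 (18.5% of all genes called higher) or 6 (20.2%), and 14 without 24 h sample 7 (20.1%). It was 14 after quantile normalization (26.4%) and 4 after rescaling to equal sums (16.2%).

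**Figure D5:**
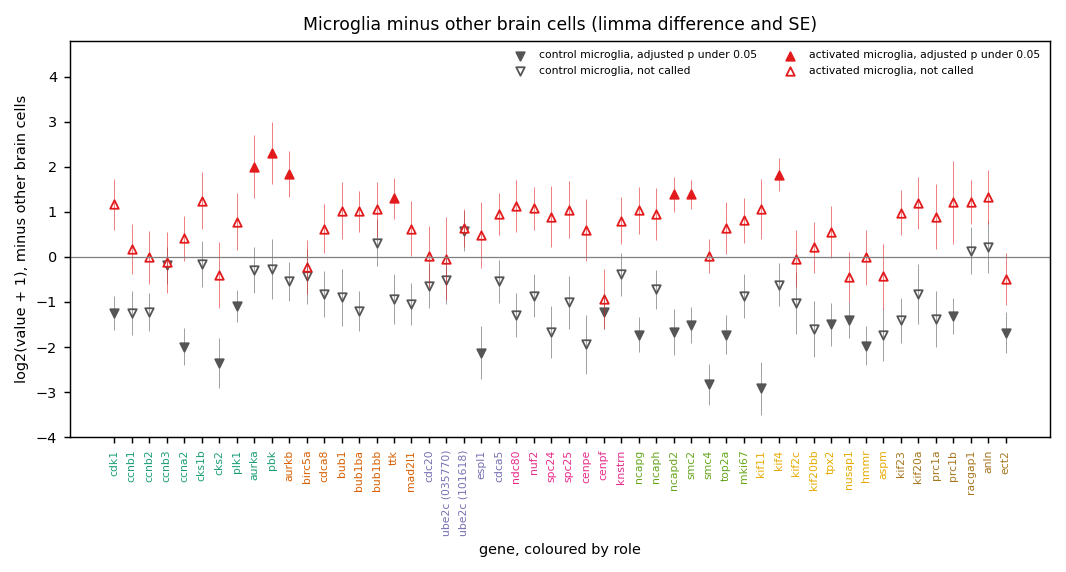
Difference from other brain cells in log2(value + 1) (vertical axis, limma difference with SE) for each gene (horizontal axis, coloured by role), in control microglia (downward triangles) and activated microglia (upward triangles); filled symbols passed an adjusted p under 0.05. Control microglia lie below 0 for 48 of 52 rows, with 17 filled, and activated microglia above 0 for 41, with 7 filled.

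Other genes of mitosis were taken from 6 further lists, which held 98 measured genes outside the 52 rows. In activated against control microglia 88 of 98 had a difference above 0 and 10 below, against 11144 and 10570 of 21714 genes, with a median of 1.23. Of the 98, 1 was called higher and 0 lower, beside 0.834% and 0.47% of all genes. The gene was smc3, a cohesin ATPase, at 37 and 35.1 in controls, 81.5 and 86.4 at 24 h, then 95 and 91 at 48 h, a difference of 1.27 ± 0.16 (log2, SE; limma, Benjamini-Hochberg adjusted p = 0.0427). That call was lost when any library but 48 h sample 8 was left out, after rescaling to equal sums or quantile normalization, in limma-voom, with all groups in 1 fit and with the shared column in both groups or neither. In 18 genes of the checkpoint and kinetochore 0 were called, with a median of 1.81, from 3.14 ± 0.57 for cenpn, a centromere protein, to 0.74 ± 0.58 for cenpl. Of 18 subunits and regulators of the anaphase promoting complex 0 were called, with a median of 1.04, from 2.66 ± 0.56 for anapc5 to -0.40 ± 0.45 for anapc13. Among 14 entry kinases and phosphatases the range was 3.23 ± 0.81 for wee1, which restrains Cdk1, to -1.50 ± 0.44 for its relative wee2, with 0 called. wee2 stood at 30 and 17.9 in controls, 8.83 and 4.79 at 24 h, then 6.05 and 12.5 at 48 h. Cohesin and condensin II ran from 2.90 ± 0.80 for ncapg2 to -0.65 ± 0.31 for stag1a, with smc3 called. Other spindle motor and midbody genes ran from 2.58 ± 0.77 for kpna2, an importin that binds spindle factors, to 0.05 ± 0.31 for kif3a, a motor of cilia, whose sign turned with equal sums and with quantile normalization, with 0 of 19 called. Transcription factors of the MuvB and E2F families ran from 2.25 ± 0.55 for e2f8 to -0.34 ± 0.25 for lin9, with 0 of 15 called, and their median for 48 h minus 24 h was -0.14. Of the 30 S phase genes 10 were called higher and 0 lower, beside 0.834% and 0.47% of all genes, and all 30 had a difference above 0. Those 10 calls were lost with the shared column in both groups or neither. They were also lost without 24 h sample 3, 24 h sample 7 or 48 h sample 4. In each of these settings 0 of 21714 genes were called. The differences ran from 3.89 ± 0.32 for mcm2, which passed, to 0.69 ± 0.31 for slbp, which did not; slbp binds histone transcripts.

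In the authors' deposited table, whose underlying libraries are not stated, 40 of 52 rows were higher at 48 h than in control microglia at an FDR under 0.05 and 0 lower, against 2.4% and 1.77% of all genes. In the authors' deposited table the smallest FDR there was that of ncapg, 9.46e-10 at a log2 fold change of 3.90, followed by ccna2 with 4.61e-08 at 3.73. At 24 h the authors' deposited table had 6 of 52 higher, against 0.588% of all genes: ccna2, bub1ba, ncapg, smc4, kif11 and kif4. For pooled activated microglia the authors' deposited table had 30 of 52 higher, against 2.39%. Between 24 h and 48 h the authors' deposited table called 6 genes of 21756, or 0.0276%, lower at 24 h, among them prc1b, with a log2 fold change of -3.81 and an FDR of 0.00322, and ube2c (ENSDARG00000035770), with -3.67 and 0.0311. For microglia against other brain cells the authors' deposited table had 20 of 52 lower and 0 higher, against 24.9% and 17.9%. Of these 20, 11 were among the 17 called lower here, and 11 of those 17 were among the 20.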

How the data were processed

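Total RNA of sorted cells was amplified with a low-input kit and sequenced as single-end reads, per the labels' protocols. Per the submitters' processing notes, edgeR, SAMtools 0.1.18, TopHat2 2.0.5 and GRCz10 were used; the counting tool, annotation and scaling are not given in the sources used here. The deposited table holds a normalized signal per gene and library, scaled by the authors; its columns sum to between 728524 and 1444667, so it is not plain CPM. Each value is a shared constant plus whole steps (largest distance from a whole step under 0.0001 steps), from which reads were recovered. The authors' second table gives log2 fold changes and FDR values (adjusted p-values) per comparison.

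Genes reaching a value of 1 in 2 or more of the 9 libraries entered the tests (21714). limma 3.58.1 (R 4.3.3; lmFit, eBayes with trend) was fitted to log2(value + 1) over all genes, two-sided, with Benjamini-Hochberg adjustment and calls under 0.05. Time points shared a fit of 3 groups. The fit was tested on simulated data, in which every gene had the same dispersion and only genes above a set mean value were changed. That test does not cover members near the floor or with replicates far apart. The members and lists were chosen with earlier results of these data known, as was the use of the shared column. Genes named are all members and, per further list, the genes with the largest and smallest difference in activated against control microglia; smc3 was named after its call was seen. Tables and plots used Python 3.11.15, pandas 2.3.3, numpy 2.4.6 and matplotlib 3.10.9. No sequences or positions were used here.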

Additional observations from a re-analysis of the deposited data

Results flagged for a closer look

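In the 4 activated libraries, which pool 2 time points, 48 h sample 8 stood far above the others for cks1b, with a gap of 0.935 of the group's range, and for spc24, with 0.882. These gaps pass Dixon's 95% critical value for 4 samples, although chance flags about 1 in 20 groups; 52 rows were examined. For 3 genes both 24 h libraries lay below both controls and both 48 h libraries above them, against 0.456% of all genes. The difference of 48 h minus 24 h was 2.29 (log2) for ccnb3, 3.16 for ube2c (ENSDARG00000035770) and 2.39 for cenpf, with unadjusted p of 0.00913, 0.00415 and 0.00762, and none passed adjustment (limma, Benjamini-Hochberg adjusted p = 0.892 for each). Against control, 24 h stood at -1.07 ± 0.56, -1.11 ± 0.64 and -0.91 ± 0.56 (SE), with adjusted p of 0.43, 0.471 and 0.501 (limma). The genes were picked for this pattern in the same libraries, so the p-values of these differences are no separate test of it. With the shared column left out, 6 rows had this pattern, against 1.21% of all genes.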

How the results depend on the processing

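No paired analysis was possible because the sample numbers in the labels are all different, so the groups share no replicate number. The planned edgeR test was not run; limma-voom was run on the recovered reads. Percentages here are the share of all genes called in that direction. Against control microglia, the filter at a mean of 5 used all libraries of the fit, those at 48 h included. Genes low in control could so pass through their 48 h values. An example is hmmr, at means of 0.916 in control, 2.54 at 24 h and 14.3 at 48 h. Counts under that filter are therefore no separate test. For control microglia against other brain cells, 17 members called lower became 27 with columns rescaled to equal sums (23.9%), 9 with quantile normalization (15.8%), 9 with limma-voom (16.7%), 7 with the shared column as deposited (22.8%) and 5 at a threshold of 0.01 (12.3%); leaving out 1 library gave 3 (9.18%) to 15 (19.4% or 22.7%). For activated against control microglia, 1 called higher became 6 with a filter at a mean of 5 (4.72%). It became 2 with equal sums (0.497%) and 2 with quantile normalization (0.659%). With all groups in 1 fit it became 17 (1.38%), and 0 in that fit without the shared column (0.00461%). It was also 0 with limma-voom (0.106%), with the shared column as deposited or left out (0%), and at 0.01 (0%). Leaving out 24 h sample 3, 24 h sample 7 or 48 h sample 4 gave 0 (0%), and leaving out 48 h sample 8 gave 3 (4.8%). For 48 h against control, 0 became 21 with a filter at a mean of 5 (of 50 members left; 1.69%), 24 with all groups in 1 fit (0.875%) and 12 in that fit without the shared column (0.189%), an alternative added after seeing the data; leaving out 1 library gave 0 (0%), and the median of 2.72 was 2.18 with the shared column as deposited. For activated microglia against other brain cells, 7 called higher became 4 with equal sums (16.2%), 14 with quantile normalization (26.4%), 16 with all groups in 1 fit (23.5%) and 2 at 0.01 (16.2%); leaving out 1 library gave 3 (18.5% or 20.2%) to 14 (20.1%). The counts at 24 h against control and at 48 h against 24 h were 0 under every alternative run. Among differences given for single genes, those reversed were kif3a in activated against control microglia (-0.0164 with equal sums, -0.123 with quantile normalization, and from -0.202 without control sample 5 to 0.304 without control sample 1), pbk against other brain cells (0.131 with quantile normalization, 0.317 with the shared column as deposited, 0.216 without control sample 5, 0.329 without other brain cell sample 6; leaving out 1 library ranged from -0.749), aurka (0.295, 0.226, and 0.268 without control sample 1; lowest -0.838) and smc4 at 48 h against 24 h (-0.0349 without 48 h sample 4, 1.22 without 48 h sample 8). Where 1 library of a group was left, it was assumed to vary like the others. The cause of these shifts was not tested. Values of genes with few reads in control microglia are limited by depth. In control samples 1 and 5, 3 reads add 0.464 and 0.457 units to the 0.223 listed for a gene without reads.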
